A study of Homo sapiens with 6 samples.

Results

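The genes of 8 leukocyte integrin subunits (ITGAL, ITGAM, ITGAX, ITGAD, ITGB2, ITGA4, ITGB1 and ITGB7) were examined for peaks of the chromatin protein GSE1 in NB4 cells, a human acute promyelocytic leukemia line. A peak was assigned to a gene when it overlapped the gene span of GENCODE version 44 extended by 50 kb on each side, without use of the peak's strength. By this rule the genes held 16 of the 21401 peaks of DMSO-treated cells and 6 of the 13233 peaks of MC2580-treated cells, with 1 DMSO and 1 MC2580 peak counted once although they lay in the windows of both ITGAX and ITGAD. The working name of the gene set also mentioned selectins, but none of the 8 genes encodes a selectin, and selectin genes are given with the related genes at the end. The cells carried the lentiviral pLEX_307 vector with V5-tagged GSE1 (transcript variant 2), so that the peaks describe an added, tagged form of the protein, and they were treated for 24 h with DMSO or with 2 µM MC2580, which inhibits the lysine demethylase LSD1. The empty-vector cells carried pLEX_307 without GSE1, and no treatment with DMSO or MC2580 is recorded for them. All 3 V5 ChIPs used the same antibody, and each of the 6 groups (3 ChIPs and 3 inputs) held 1 library. The empty-vector ChIP and the inputs entered only as the background of peak calling. Peak lists hold no expression values, so that the identity of the cells was not checked against marker genes.

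Integrins are cell surface receptors made of an alpha and a beta subunit. The beta2 subunit (ITGB2, CD18) pairs with the alpha subunits of ITGAL (CD11a), ITGAM (CD11b), ITGAX (CD11c) and ITGAD (CD11d) to form the leukocyte-specific integrins that bind ICAM proteins and, for CD11b and CD11c, complement fragments. The alpha4 subunit (ITGA4, CD49d) pairs with beta1 (ITGB1, CD29) or beta7 (ITGB7) and binds VCAM1, fibronectin or, with beta7, the gut addressin MADCAM1. CD11b rises as myeloid precursors mature and is a standard flow cytometry marker of that step.

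GSE1 peaks in DMSO were found at ITGB2, ITGA4, ITGAL, ITGAD and ITGB7 and in the window of ITGAX, whereas ITGAM and ITGB1 had none. After MC2580 peaks remained at ITGB2 (3 of 6 DMSO peaks), ITGA4 (1 of 2), ITGAL (1 of 3) and in the shared ITGAX and ITGAD stretch (1 of 2), and ITGB7 had 0 against 3 in DMSO. All 6 MC2580 peaks lay at a DMSO peak, and each had the lower score. Scores are those the authors' peak caller assigned, 10 times the negative log10 of p, and the p-value of 1e-05 used for calling equals a score of 50. A score grows with sequencing depth, which was unknown. Since each condition was a single library, the spread between replicates is unknown, no test between the conditions was made, and differences are differences between these libraries.

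**Figure D1:**
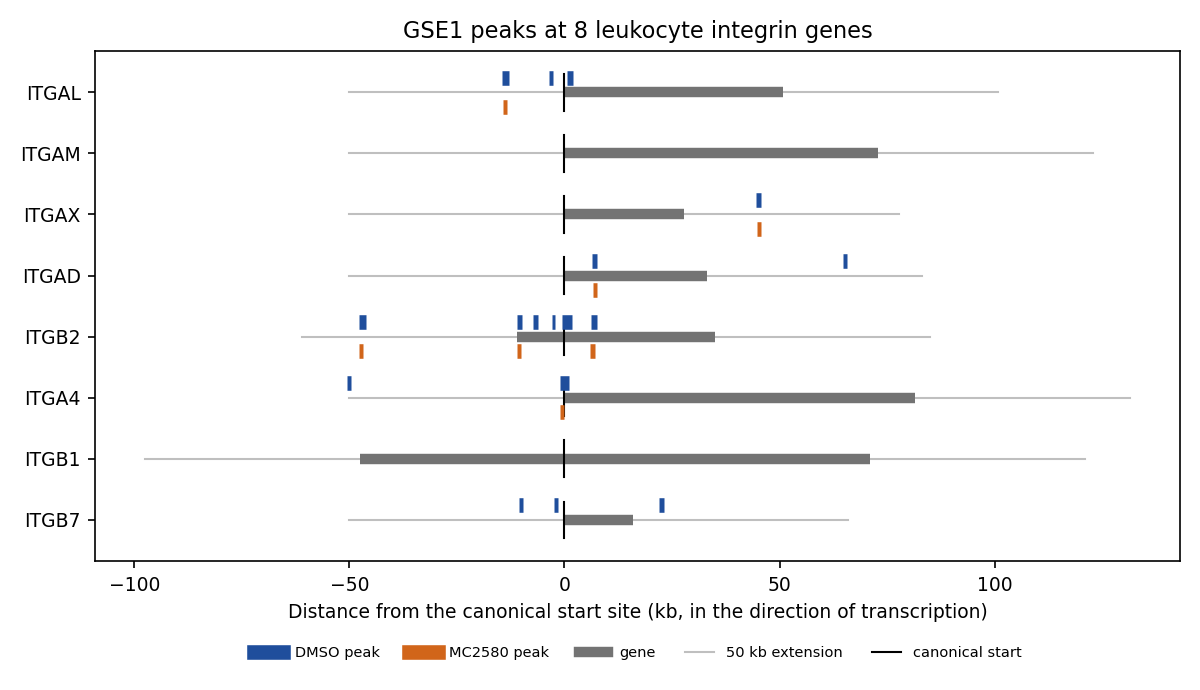
Positions of GSE1 peaks at the 8 genes, in kb from the canonical start site in the direction of transcription, with DMSO peaks above and MC2580 peaks below each gene (thick gray bar, gene; thin gray line, 50 kb extension; black tick, canonical start). ITGB2 held 6 DMSO and 3 MC2580 peaks, while ITGAM and ITGB1 held none in either list.

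Of 20033 protein-coding genes, 47.9% had a DMSO peak in a window built the same way and 27.3% had an MC2580 peak, against 6 and 5 of the 8 integrin genes. ITGAX was counted in both lists only through the peak inside ITGAD, so that ITGAX and ITGAD are not separate observations. A promoter peak, meaning a peak at most 3 kb from any annotated start of the gene, was present in DMSO at 16.1% of protein-coding genes and in MC2580 at 7.87%, against 4 (ITGB2, ITGA4, ITGAL and ITGB7) and 2 (ITGB2 and ITGA4) of the 8. Among the 3234 protein-coding genes with a DMSO promoter peak, 60.4% had no MC2580 promoter peak, and 2 of the 4 integrin genes (ITGAL and ITGB7) had none. The integrin genes have between 2 and 25 annotated start sites, against a median of 5 for protein-coding genes. With only the start of the gene record used, promoter peaks were again found at 4 (DMSO) and 2 (MC2580) of the 8. The share over all genes was not computed by that rule, and a link to the number of starts was not tested. The windows of the integrin genes, 116 to 219 kb, compare with a median of 127 kb.

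ITGB2, the common beta subunit of the CD11 integrins, lay on chromosome 21 from 44885953 to 44931989 on the minus strand and held the most peaks. Of its 23 annotated start sites 20 lay within 3 kb of a DMSO peak, and the canonical start (44920899) lies 11090 bp inside the gene's outer start. The strongest DMSO peak, with a score of 515.41, lay at 44930759 to 44931967, 22 bp from an annotated start at the outer edge of the gene. An MC2580 peak with a score of 177.69 lay over the same place, from 44930964 to 44931968, and shared 1004 bp with it. The outer start of ITGB2 thus had a peak beside it in both lists, at a score ratio (MC2580 over DMSO) of 0.345.

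The canonical ITGB2 start had a peak in DMSO but not in MC2580. It lay under the widest of the 16 DMSO peaks, which ran from 44919182 to 44921504 (2323 bp) with a score of 359.57, and which also overlapped the antisense gene ITGB2-AS1. No MC2580 peak overlapped it. Genome-wide, 2334 DMSO peaks had a score of at least 300 and 86.8% of them had an MC2580 counterpart, and of the 5 such peaks at the integrin genes this was the exception. Between the canonical and the outer start were another 2 DMSO peaks without an MC2580 counterpart. These were a peak at 44927035 to 44928276 with a score of 167.74, 442 bp from an ITGB2 start and over a start of ITGB2-AS1, and a weak one at 44923002 to 44923773 with a score of 52.98. The signal over ITGB2 and ITGB2-AS1 cannot be told apart, since a peak has no strand.

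The last DMSO peaks of the ITGB2 window were found in both lists. In intron 1 of the canonical transcript, over another annotated start, a DMSO peak at 44913348 to 44914763 (score 108.25) overlapped an MC2580 peak at 44913906 to 44914879 (74.48). In the gene SLX9, 35142 bp from the nearest ITGB2 start, a DMSO peak at 44967131 to 44968720 (150.35) overlapped an MC2580 peak at 44967758 to 44968658 (83.26). By start site, 10 of the 23 ITGB2 starts lay under a DMSO peak and 1 under an MC2580 peak.

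The sequences of the peaks next to the outer and over the canonical ITGB2 start are shown because the peak was shared at the former and found in DMSO only at the latter, the latter being chosen after its values were seen. They are 300 bp of the hg38 minus strand at the centers of the DMSO peaks, chr21:44931214-44931513 and chr21:44920194-44920493, and capitals mark any of the 6 words defined with the word counts.
ITGB2 peak next to the outer start: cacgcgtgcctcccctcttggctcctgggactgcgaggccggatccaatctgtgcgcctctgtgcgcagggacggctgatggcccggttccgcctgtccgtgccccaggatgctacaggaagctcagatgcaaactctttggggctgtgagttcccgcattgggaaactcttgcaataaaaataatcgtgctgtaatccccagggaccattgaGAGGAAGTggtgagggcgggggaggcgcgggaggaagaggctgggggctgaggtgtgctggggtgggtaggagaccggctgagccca
ITGB2 peak over the canonical start: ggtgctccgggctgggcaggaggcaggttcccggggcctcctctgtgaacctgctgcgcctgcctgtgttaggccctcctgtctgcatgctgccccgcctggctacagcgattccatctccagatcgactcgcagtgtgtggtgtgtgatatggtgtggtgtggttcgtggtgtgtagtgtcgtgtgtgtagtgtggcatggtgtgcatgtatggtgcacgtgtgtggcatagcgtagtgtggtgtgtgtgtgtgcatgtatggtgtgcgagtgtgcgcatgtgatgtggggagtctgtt
Neither window contains an annotated ITGB2 start. The outer window, which runs from 476 to 775 bp downstream of the outer start, held the PU.1 word GAGGAAGT at position 214 and 16 CpG dinucleotides. The canonical window, which begins 406 bp downstream of the canonical start, held none of the words and 13 CpG dinucleotides. Their GC contents were 62.3% and 59.0%, against a median of 48.7% for all DMSO peak centers.

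ITGA4, the alpha4 subunit, lay on chromosome 2 from 181457202 to 181538940 on the plus strand and carried the highest score of any integrin gene in DMSO. This peak, at 181456309 to 181458525 (2217 bp), had a score of 647.43, above 95.7% of the DMSO peaks, and it spanned the canonical start at 181457386 and 7 of the 11 annotated starts. In MC2580 a narrower peak of 971 bp (181456372 to 181457342) with a score of 142.19 lay wholly inside it. The score ratio was 0.220, the lowest of the 6 pairs, and the MC2580 peak covered 43.8% of the DMSO peak. Both began at nearly the same place, 63 bp apart, whereas the MC2580 peak ended 1183 bp earlier, 44 bp short of the canonical start, and covered 2 of the annotated starts. The other DMSO peak of the window crossed its outer edge, 49488 bp from the nearest ITGA4 start (181406900 to 181407714, score 60.94, in LINC01934), and had no MC2580 counterpart.

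The sequences at the center of the DMSO and of the MC2580 peak of ITGA4 are shown because the center of the MC2580 peak lay at -560 bp relative to that of the DMSO peak, away from the gene body. They are 300 bp of the hg38 plus strand, chr2:181457268-181457567 and chr2:181456708-181457007, with words in capitals. The MC2580 window was chosen after its values were seen.
ITGA4 DMSO center: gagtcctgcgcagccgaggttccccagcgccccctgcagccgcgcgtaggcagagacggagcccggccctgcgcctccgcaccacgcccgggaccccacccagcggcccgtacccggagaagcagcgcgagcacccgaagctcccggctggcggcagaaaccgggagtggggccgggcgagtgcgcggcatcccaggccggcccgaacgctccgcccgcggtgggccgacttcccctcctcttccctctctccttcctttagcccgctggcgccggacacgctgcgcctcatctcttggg
ITGA4 MC2580 center: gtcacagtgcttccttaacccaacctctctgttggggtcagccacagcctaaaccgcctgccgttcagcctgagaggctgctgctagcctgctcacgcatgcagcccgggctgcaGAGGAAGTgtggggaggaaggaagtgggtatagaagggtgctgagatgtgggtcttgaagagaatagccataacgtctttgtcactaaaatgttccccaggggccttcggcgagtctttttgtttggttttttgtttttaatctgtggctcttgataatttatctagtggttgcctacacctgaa
The DMSO center window runs from -118 to 181 bp relative to the canonical start, had a GC content of 74.7% with 37 CpG dinucleotides, and held none of the 6 words. The MC2580 center window had a GC content of 51.0% with 7 CpG dinucleotides and held the PU.1 word GAGGAAGT at position 116.

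ITGAL, the CD11a subunit, lay on chromosome 16 from 30472658 to 30523567 on the plus strand, with 3 DMSO peaks. The strongest, at 30458341 to 30459803 with a score of 485.51, lay in intergenic sequence 12855 bp from the nearest ITGAL start and 12467 bp from a start of SEPHS2. It was the ITGAL peak present in both lists: the MC2580 peak at 30458382 to 30459473 had a score of 133.73 (ratio 0.275) and lay wholly inside it. The DMSO peaks closer to the gene had no MC2580 counterpart. They were a peak 2516 bp from a start (30469089 to 30470142, score 162.1) and a peak in intron 1 that covered 1 annotated start (30473263 to 30474676, score 145.95). The nearest MC2580 peak to any ITGAL start was thus 13.2 kb away.

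ITGAX and ITGAD, the CD11c and CD11d subunits, are neighbors on chromosome 16, and neither had a promoter peak of its own. The strongest peak of this stretch lay at 31399773 to 31400890 (score 355.26), in intron 5 of the canonical ITGAD transcript, 6438 bp from the nearest ITGAD start, 28.3 kb from the nearest ITGAX start and 1675 bp from the start of the non-coding gene ENSG00000260757. The MC2580 peak at 31399884 to 31400827 (score 87.52, ratio 0.246) lay wholly inside it. A further DMSO peak of the ITGAD window, at 31458060 to 31459036 (score 110.28), covered a start of ARMC5, 34118 bp from the nearest ITGAD start, and had no MC2580 counterpart.

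The intron of ITGAD is shown because it held the strongest peak of the ITGAM, ITGAX and ITGAD stretch (chr16:31400182-31400481, hg38 plus strand, words in capitals).
ITGAD intron 5: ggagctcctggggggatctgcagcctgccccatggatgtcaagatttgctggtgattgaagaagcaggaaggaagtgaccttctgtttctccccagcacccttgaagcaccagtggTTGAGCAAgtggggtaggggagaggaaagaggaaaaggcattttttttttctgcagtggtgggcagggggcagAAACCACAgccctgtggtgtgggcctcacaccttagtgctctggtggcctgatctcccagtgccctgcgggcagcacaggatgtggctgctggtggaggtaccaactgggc
It held a CEBP word (TTGAGCAA, which matches TTGCNNAA on the other strand) at position 117 and a RUNX word (AAACCACA, which matches TGTGGTTT on the other strand) at position 190, and 1 CpG dinucleotide at a GC content of 57.7%.

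ITGAM, the CD11b subunit, lay on chromosome 16 from 31259967 to 31332892 and had no peak within 50 kb in either list. The nearest peak to the gene was the one in ITGAD intron 5, 66.9 kb away in DMSO and 67.0 kb in MC2580, and with an extension of 100 kb it became the 1 peak of ITGAM in each list. None of the 8 annotated ITGAM starts lay within 3 kb of a peak. A list without a peak at this threshold shows that none was called, not that GSE1 was absent.

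Of the beta subunits that pair with alpha4, ITGB7 had peaks in DMSO and ITGB1 had none. ITGB7, on chromosome 12 from 53191323 to 53207282 on the minus strand, had 3 DMSO peaks and no MC2580 peak. Its promoter peak, 1433 bp from the nearest start (53208715 to 53209608), had a score of 56.48, close to the calling threshold. The other DMSO peaks of the window lay at the promoters of neighbors, 1582 bp from a start of RARG, a retinoic acid receptor (53216934 to 53217895, score 107.46), and 130 bp from a start of ZNF740 (53184010 to 53185255, score 80.59). The nearest MC2580 peak was 115 kb from ITGB7. Peak numbers in the DMSO list skip 2 values between 53185256 and 53208714, the stretch that contains ITGB7, so that peaks numbered there are not in the list analysed here. ITGB1, on chromosome 10 from 32887273 to 33005792, had no peak in its window, and the nearest were 1881 kb away in DMSO and 1711 kb away in MC2580. Here the DMSO list skips 1 number between 30784749 and 34886660.

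**Figure D2:**
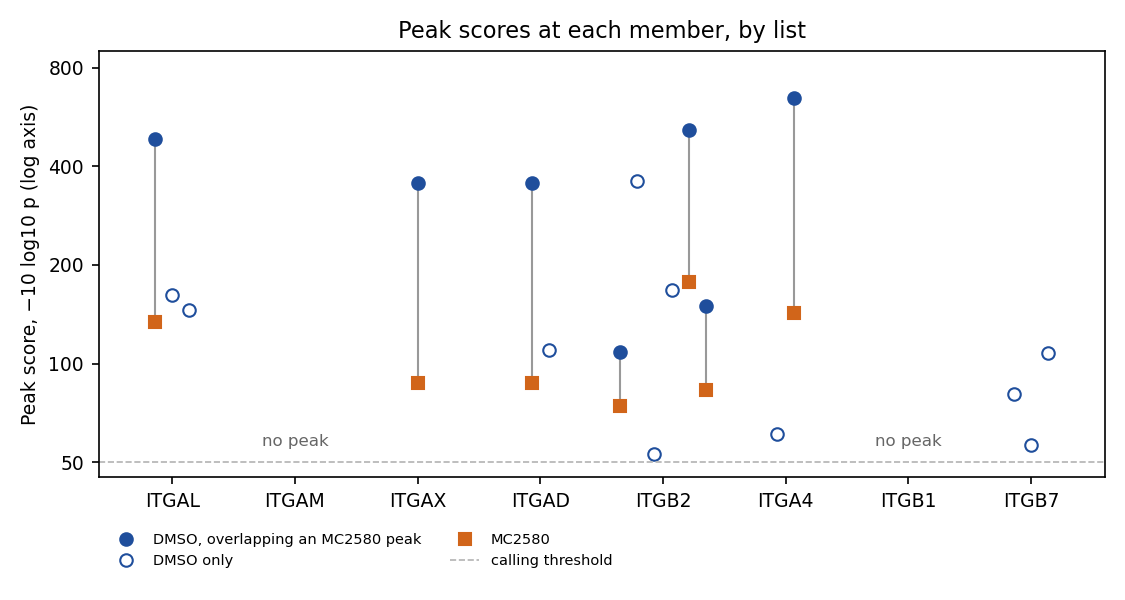
Score of each peak by gene on a log axis: filled circles, DMSO peaks that overlapped an MC2580 peak; open circles, DMSO peaks that did not; squares, MC2580 peaks, joined to their DMSO peak by a line. The pair at ITGAX and ITGAD is the same peak drawn under both genes, and every square lies below its circle.

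Over all integrin genes, the DMSO peaks had scores from 52.98 to 647.43 with a median of 148.1 (order-statistic 95% interval 80.59 to 359.57), against 91.1 for the whole list. For the 8 DMSO peaks that overlapped a gene span without the extension the median was 261.5. The MC2580 peaks ranged from 74.48 to 177.69 with a median of 110.6, against 78.1 for the whole list. The numbers of peaks correspond to a ratio of 0.375, against 0.618 for the whole lists, and to 1.48 DMSO and 0.556 MC2580 peaks per 100 kb of window, against 0.685 and 0.420 over chromosomes 1 to 22, X and Y. The densities have unlike bases, since the chromosomes include sequence far from genes. Of all peaks, 17251 of 21401 (DMSO) and 10126 of 13233 (MC2580) lay in windows around protein-coding genes, for which no density was computed. No test of these differences was made.

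Overlap between the lists was counted with a minimum of 1 bp. An MC2580 peak was found at 6 of the 16 DMSO peaks (37.5%, 95% interval by Wilson's method 18.5 to 61.4), against 33.6% of all DMSO peaks, so that the share was near the background. Of the 6 MC2580 peaks 6 did (100%, interval 61.0 to 100), against 58.0% of all MC2580 peaks. These intervals cover counting error only, and neighboring peaks of a locus are not independent. The shared DMSO peaks had the higher scores, with a median of 420.4 (108.25 to 647.43) against 108.9 (52.98 to 359.57) for the 10 found in DMSO only, and the same order held for the whole list (164.4 and 77.53). By score, 4 of 5 integrin peaks of at least 300 were shared (86.8% in the whole list), 2 of 7 from 100 to 300 (44.9%) and 0 of 4 under 100 (16.4%). A score of 51.59 was the lowest in the DMSO list and 899 MC2580 peaks (6.79%) lay below it, but none of the integrin peaks did.

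The scores of the shared peaks were compared pair by pair. The ratios were 0.220 at ITGA4, 0.246 in the ITGAD intron, 0.275 upstream of ITGAL, 0.345 at the outer ITGB2 start, 0.554 in SLX9 and 0.688 in ITGB2 intron 1, with a median of 0.310. Among all 5449 pairs of a DMSO and an MC2580 peak that overlapped each other and no other peak, the median was 0.638, and between 7.38% (for ITGA4) and 54.3% (for ITGB2 intron 1) had a lower ratio. Pairs of like DMSO score had a median of 0.325 (1353 pairs with a score of at least 300) or 0.560 (2525 pairs from 100 to 300). Of the integrin pairs in the first range, ITGA4, the ITGAD intron and ITGAL lay below its median and the outer ITGB2 start above it. In the second range SLX9 lay below and ITGB2 intron 1 above. A ratio of scores does not separate binding from depth.

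**Figure D3:**
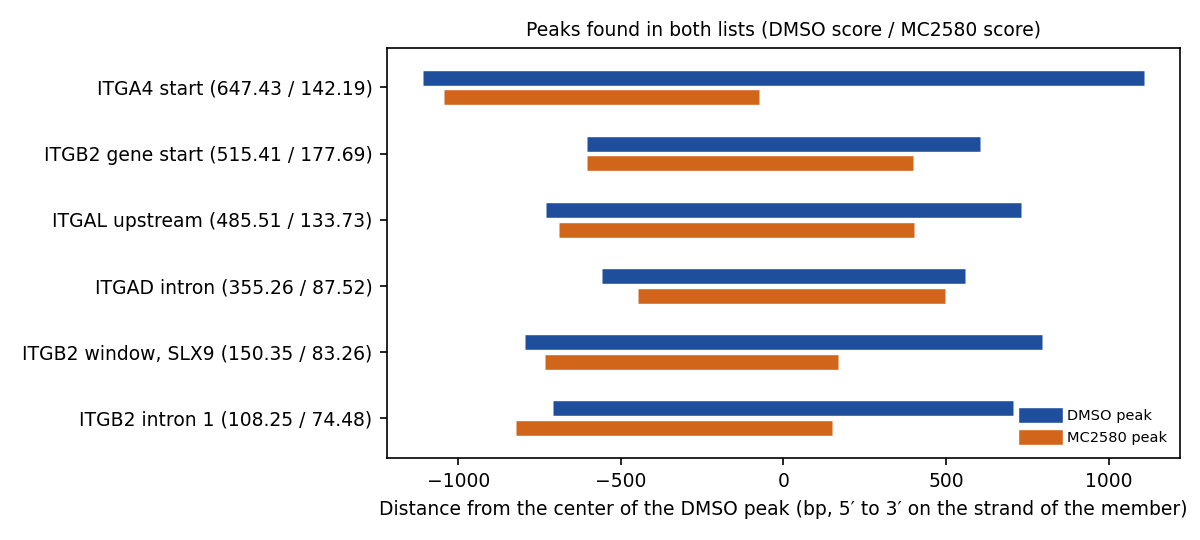
Extent of the 6 shared peaks in bp around the center of the DMSO peak, 5′ to 3′ on the strand of the integrin gene, with the DMSO and MC2580 scores in parentheses. The MC2580 peak is the narrower at each place, and at ITGA4 it covers the 5′ part of the DMSO peak.

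The MC2580 peaks were also narrower, from 901 to 1092 bp, than their DMSO partners, from 1118 to 2217 bp. On the strand of the integrin gene the 3′ ends differed more than the 5′ ends in 5 of the 6 pairs, shown by the plot of shared peaks. At the outer ITGB2 start, for example, the 5′ ends lay 1 bp apart and the 3′ ends 205 bp apart. In the ITGAD intron the MC2580 peak was shorter by 111 bp on the 5′ side and by 63 bp on the 3′ side.

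By position, 13 of the 16 DMSO peaks and 4 of the 6 MC2580 peaks lay within 3 kb of a start of some gene, and 9 and 3 lay within 3 kb of a start of an integrin gene itself. Of all peaks in windows around protein-coding genes, 40.3% (DMSO) and 37.0% (MC2580) lay within 3 kb of a start. Both sets of windows contain start sites by construction, since each window surrounds a gene, and no test was made. The other DMSO peaks were 1 intergenic peak upstream of ITGAL and 2 over exons, in SLX9 and LINC01934.

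Consensus words of 6 transcription factors or families were searched on both strands in the 200 bp at each peak center. The words were GAGGAAGT for PU.1, TGTGGTTT for RUNX factors, TTGCNNAA for CEBP factors and TGANTCA for AP-1. They were AGATAAG for factors of the GATA family, and AAATCAC for GFI1, a repressor that recruits LSD1. In DMSO the PU.1 word was found at 1 of 16 integrin peaks (the outer ITGB2 start) and at 2.94% of all DMSO peaks. The RUNX word was found at 3 of 16 (ITGB7 promoter, ITGAD intron and SLX9; 4.67% of all) and the CEBP word at 4 of 16 (14.1% of all). The AP-1, GATA and GFI1 words were each found at 1 of 16, against 9.33%, 3.32% and 3.74% of all. In MC2580 the PU.1 word was found at 2 of 6 centers (ITGA4 and upstream of ITGAL; 1.95% of all), the RUNX and CEBP words at 1 of 6 each (both in the ITGAD intron; 3.17% and 11.1% of all), and the AP-1, GATA and GFI1 words at 0 of 6 (7.69%, 3.11% and 2.97% of all). A word is a description of the letters and no evidence of binding, and these counts are too few to compare.

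Genes of the same adhesion system were counted in the same way: 36 genes in 4 groups, of which 12 had a promoter peak in DMSO and 7 in MC2580. Both totals include ICAM1, ICAM3, ICAM4 and ICAM5, which lay under the same DMSO peak and are not separate observations. Of the 18 other integrin subunits 2 had a DMSO promoter peak, namely ITGA5 (alpha5, score 97.1) and ITGB8 (beta8, 76.96), which were named after their values were seen, and 0 had an MC2580 one. The shares over all protein-coding genes were 16.1% and 7.87%. Among the selectins, which mediate leukocyte rolling, SELE had no peak in its window and SELP had 1 in each list but none at its promoter. SELPLG, the selectin ligand PSGL-1, had 5 DMSO promoter peaks and 1 MC2580 promoter peak, the strongest having scores of 830.36 (chromosome 12, 108632829 to 108636327) and 366.79 (108633050 to 108635759).

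The ligands and the activators of leukocyte integrins differed in how their peaks were laid out. ICAM1, ICAM3, ICAM4 and ICAM5 lay on chromosome 19 under the same DMSO peak, 127639 bp wide, with a score of 3100, and under MC2580 peaks of 46742 bp (ICAM1, ICAM4 and ICAM5) or 63092 bp (ICAM3) with the same score. This score is shared by 116 DMSO and 86 MC2580 peaks, so that its equality in both lists does not show equal strength, and these 4 of the 7 ligand genes are not separate observations. Their windows, which overlap, held more MC2580 than DMSO peaks: 10 and 3 at ICAM1, 9 and 6 at ICAM3, and 7 and 2 at both ICAM4 and ICAM5. The smaller widths in MC2580 thus do not mean fewer peaks. The wide DMSO peak ran from 10249891 to 10377529, and the separate MC2580 peaks at 10249957 to 10296698 and 10313765 to 10376856 lay within it. A larger number of MC2580 peaks therefore does not show more binding. The other ligand genes, ICAM2, VCAM1 and MADCAM1, also named after their values were seen, had no promoter peak. Of the 8 activators and adaptors, 5 had a DMSO promoter peak and 2 an MC2580 one. RASGRP2, an activator of RAP1, had the strongest of these (chromosome 11, 64744930 to 64746134, score 303.66), overlapped by an MC2580 peak with a score of 152.14. The others, named after their values were seen, were TLN1 (talin, 179.85), APBB1IP (RIAM, 101.79), VCL (vinculin, 100.8) and FERMT3 (kindlin-3, 97.86). VCL also had an MC2580 promoter peak (62.45), which did not overlap a DMSO peak.

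**Figure D4:**
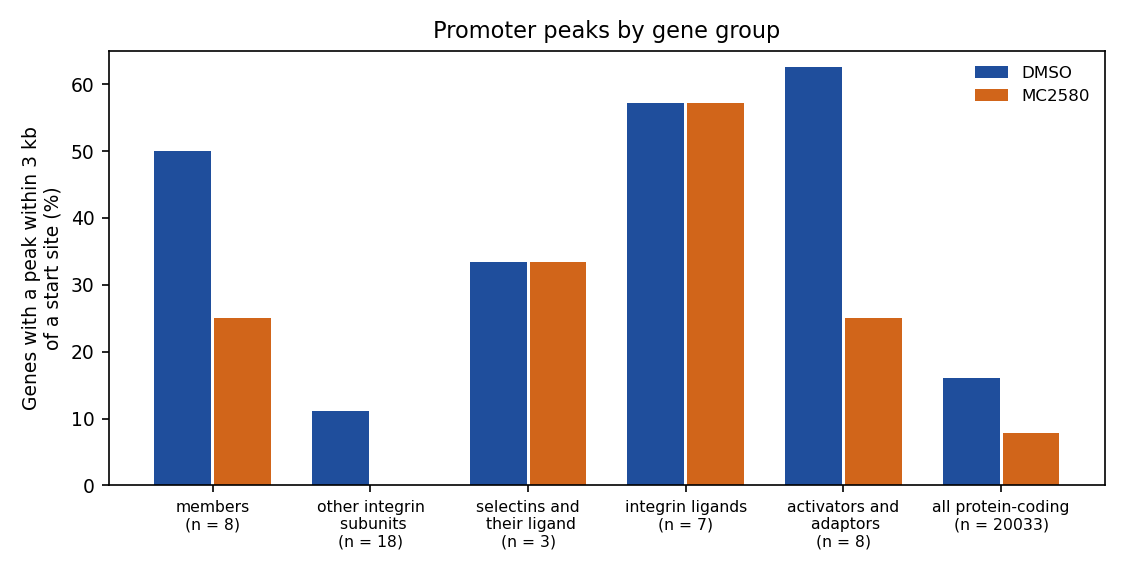
Share of genes with a peak within 3 kb of a start site, in percent, for the 8 integrin genes examined, the 4 groups of related genes and all protein-coding genes (bars from 0; no error is drawn, since there was 1 library per condition). Promoter peaks were found at 4 (DMSO) and 2 (MC2580) of the 8 integrin genes, and 4 of the 7 integrin ligands lay under the same wide DMSO peak.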

How the data were processed

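V5 ChIP-seq of 3 NB4 libraries and 3 inputs was analysed through 2 peak lists, for DMSO and MC2580, whose names give the condition. Per the methods, the authors aligned reads to hg38 with Bowtie, kept unique matches, and ran MACS with a p-value cut-off of 1e-05, with both the respective input and the empty-vector ChIP as background. How these were combined is not given in the sources used here. The deposited values are scores, minus 10 times log10 p. Both lists share the empty-vector control. Depth was unknown. The highest peak number in the DMSO list is 22566, and 1165 numbers up to it are absent, against 0 in the MC2580 list.

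All 8 genes are described. The genes, lists and tests were chosen with earlier results of these data known. Of the 36 related genes (1 more is not reported here), those with the 6 highest DMSO and 4 highest MC2580 promoter scores were named, along with the selectin group. Others are marked in the text as named after their values were seen. Coordinates are hg38, counted from 1, and all peaks lay within the reference chromosomes. Peaks were classed as promoter, exon or untranslated region, intron, or intergenic, in that order. The canonical transcript is the one GENCODE marks as such. Shares have Wilson 95% intervals. No test was made, since each group held 1 library. Interval and word functions were tested on simulated data. Alternatives covered the score, the window, wide and split peaks, the overlap rule, the promoter definition and the list length. Python 3.11.15, numpy 2.4.6, scipy 1.17.1, pysam 0.24.0 and matplotlib 3.10.9 were used.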

Additional observations from a re-analysis of the deposited data

How the results depend on the processing

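No paired analysis was possible because each condition had a single library, and leaving out replicates was not possible either. Of 58 alternative values of the main results, 56 stayed within 1.5 times the count or ratio, or within the interval of the share or median. This count is no measure of robustness, since some settings could not change a value. The cut for wide peaks was 7875 bp, above the widest integrin peak of 2323 bp, and merging peaks within 1 kb joined none at these genes. The intervals were also wide, for DMSO 18.5 to 61.4 for the share and 80.59 to 359.57 for the median. Without an extension of the gene span 8 DMSO peaks remained of 16 with a median score of 261.5 instead of 148.1. At a score of at least 100 the MC2580 peaks numbered 3 of 6. Both settings can only remove peaks, but how many they removed depends on the data. MC2580 over DMSO peak numbers gave 0.250 at a score of at least 100, 4 to 8 without the extension, and 0.462 with the DMSO list cut to the length of the MC2580 list. The cut makes the whole lists equally long, so that 0.462 is not to be set against the whole-list ratio of 0.618. No whole-list ratio was computed at a score of at least 100. DMSO promoter peaks were found at 3 genes instead of 4 at that score, within 1 kb of a start, and in the shortened list. Of 48 counts per gene, 15 moved by more than 1.5 times. Depth was unknown and was not varied.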
